A study of Mus musculus with 4 samples.

Results

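The 60 genes described here run the cell division cycle and copy DNA: 20 control the passage from G1 into S phase, 17 act in DNA replication and nucleotide supply, and 23 act in G2 and mitosis. They were found by symbol, as probe sets of the array with a single gene symbol in the platform annotation. That gave 138 of 45037 probe sets, for 59 of the 11079 genes tested. Ccnb1, the cyclin B1 gene, had no such probe set and is not analysed here. The arrays measured total RNA of immortalized mouse brown preadipocytes, the precursors of brown fat cells, on a mixed C57/BL6-129 background. All cells carried floxed alleles of G9a, the gene of a histone H3 lysine 9 methyltransferase (Ehmt2). In the vector group (labelled wild type) these alleles were left in place, and in the Cre group (labelled G9a knock out) they had been exposed to Cre recombinase. Each group held 2 arrays, numbered 1 and 2. The cells were grown in DMEM with fetal bovine serum. The labels name no drug, time or cell density, nor the way the cells were immortalized and Cre delivered, nor which exons were floxed. They name no separate cultures behind the 2 arrays of a group, so p-values measure only the spread between these arrays.

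In dividing cells, D-type cyclins with Cdk4 and Cdk6, then E-type cyclins with Cdk2, phosphorylate the retinoblastoma family of pocket proteins, which releases E2F factors and turns on genes of DNA replication. CDK inhibitors oppose these kinases. Genes of G2 and mitosis are switched on later by the B-MYB and FOXM1 complexes, and cyclin A and cyclin B with Cdk1 then drive entry into mitosis. Preadipocytes divide in culture and leave the cycle as they mature into fat cells, and pocket proteins and CDK inhibitors are known to take part in that exit.

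Promoter sequences are shown first because their letters can be compared between the phases without any use of expression. RefSeq (GRCm38.p6) windows of 300 bases, from 250 before to 50 after a transcription start, were at hand for 47 of the 59 genes. They were searched on both strands for E2F letters (TTTCCCGC, TTTGGCGC, TTTCGCGC or TTTGCCGC), for CCAAT, the box bound by NF-Y, and for TTTGAA, the core of the cell cycle genes homology region (CHR) bound by the DREAM and B-MYB complexes. Matches on opposite strands can overlap, as a pair of the E2F matches of Mcm6 does. The windows of 5 genes are printed 5′ to 3′ on the gene's strand, with matches in capitals. These genes are among the 4 members of each phase with the smallest p between Cre and vector cells, and they show the range of match patterns.
E2f2, chr4:136172024-136172323, plus strand, the first of 2 starts in the table: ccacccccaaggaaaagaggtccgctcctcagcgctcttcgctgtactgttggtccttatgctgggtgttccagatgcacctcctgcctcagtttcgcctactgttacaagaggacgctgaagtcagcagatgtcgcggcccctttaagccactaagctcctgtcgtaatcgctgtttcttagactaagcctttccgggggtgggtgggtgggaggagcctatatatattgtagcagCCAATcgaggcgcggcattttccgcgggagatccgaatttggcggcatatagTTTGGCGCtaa
Cdc6, chr11:98907901-98908200, plus strand: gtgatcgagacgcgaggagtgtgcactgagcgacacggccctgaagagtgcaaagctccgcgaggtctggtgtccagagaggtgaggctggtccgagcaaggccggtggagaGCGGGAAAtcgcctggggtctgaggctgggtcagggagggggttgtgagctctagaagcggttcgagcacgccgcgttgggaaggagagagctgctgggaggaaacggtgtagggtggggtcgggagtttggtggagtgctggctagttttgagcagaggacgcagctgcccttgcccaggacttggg
Mcm6, chr1:128359656-128359955, minus strand: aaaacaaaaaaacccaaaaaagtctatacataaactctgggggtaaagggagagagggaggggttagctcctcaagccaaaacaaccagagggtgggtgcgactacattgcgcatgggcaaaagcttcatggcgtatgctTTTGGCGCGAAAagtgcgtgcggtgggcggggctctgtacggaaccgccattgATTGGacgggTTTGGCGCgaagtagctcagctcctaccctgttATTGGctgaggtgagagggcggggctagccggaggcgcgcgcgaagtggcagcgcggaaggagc
Top2a, chr11:99024140-99024439, minus strand: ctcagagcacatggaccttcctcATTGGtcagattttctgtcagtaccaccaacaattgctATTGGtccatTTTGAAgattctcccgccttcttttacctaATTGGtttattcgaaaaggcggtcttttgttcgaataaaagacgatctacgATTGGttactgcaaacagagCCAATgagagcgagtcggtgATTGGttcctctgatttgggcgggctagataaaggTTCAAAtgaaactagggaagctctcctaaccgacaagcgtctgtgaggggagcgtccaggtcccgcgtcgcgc
Plk1, chr7:122159185-122159484, plus strand: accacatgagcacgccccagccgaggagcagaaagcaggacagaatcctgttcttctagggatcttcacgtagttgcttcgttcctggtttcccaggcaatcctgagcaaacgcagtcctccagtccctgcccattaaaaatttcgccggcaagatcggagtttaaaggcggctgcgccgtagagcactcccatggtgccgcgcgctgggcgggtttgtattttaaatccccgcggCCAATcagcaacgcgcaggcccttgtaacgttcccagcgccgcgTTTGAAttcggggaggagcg

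Mcm6 held 3 E2F matches and 2 CCAAT boxes, the printed window of E2f2 held 1 of each, and Cdc6 held 1 E2F match and no CCAAT box. Top2a held 6 CCAAT boxes and 2 CHR matches, and Plk1 held 1 of each. Over the members, E2F letters were most frequent in windows of replication genes (43.8% of 16 windows), followed by G1/S genes (25% of 20) and mitotic genes (5.56% of 18), against 2.26% of all 32851 windows. CHR letters showed another order, with 72.2% of mitotic windows, 25% of G1/S windows and 12.5% of replication windows, against 17.9% of all. CCAAT was in 88.9% of mitotic, 75% of replication and 45% of G1/S windows, against 37.4% of all. The members' windows were also richer in G and C (median 58.8%, against 52.7% over all windows), which changes how often such letters are met. A match is a description of the letters and does not show binding. The median log2 difference was -0.11 in the 13 genes with E2F letters and -0.17 in the 34 without, and -0.17 in the 19 with CHR letters and -0.14 in the 28 without.

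**Figure D1:**
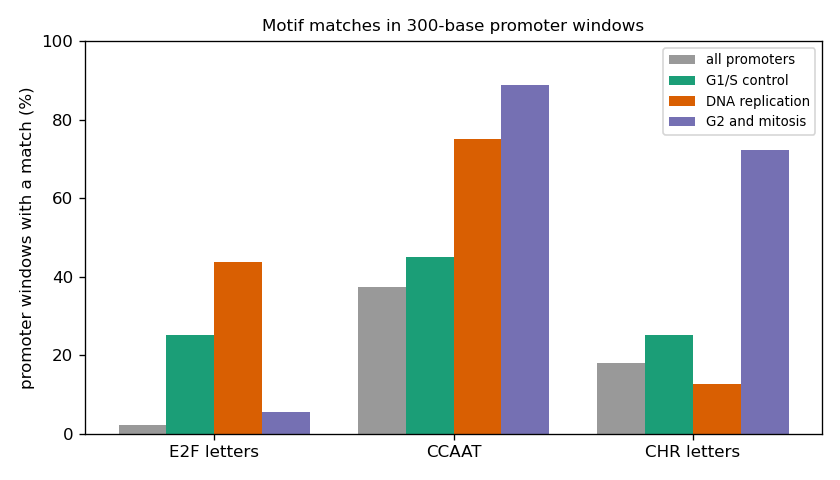
Share of 300-base promoter windows (percent, from 0) with E2F letters, CCAAT or CHR letters, for all promoters (grey) and for the G1/S, replication and mitotic members. E2F letters peak in replication genes at 43.8% and CHR letters in mitotic genes at 72.2%.

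Signals below are MAS5 intensities as deposited, in the order vector 1, Cre 1, vector 2, Cre 2 where 4 are given. Differences are Cre minus vector on the scale log2(signal + 16) after quantile normalization, with the standard error (SE) of a limma model for 2 arrays against 2, and pair values are the differences within replicate numbers 1 and 2. Ehmt2 read 2682, 953, 2688 and 912, so both Cre arrays lay below both vector arrays. Its difference was -1.49 ± 0.20. The adjusted p from limma was 0.227 without and 0.000281 with the replicate number as a term (the paired model). The preadipocyte markers were uneven. Col1a1 read 11848 to 15187, Col3a1 6791 to 15277, Pdgfrb 3123 to 5669 and Eng 415 to 856, while Ebf2 (72.9 to 223), Cd34 (68.7 to 151) and Pdgfra were dim and Zfp423 read at most 3.8. Pdgfra read 248, 106, 81.7 and 59.1, a difference of -0.83 ± 0.42, and Col3a1 differed by 0.51 ± 0.31 (adjusted p in the paired limma model 0.0155). Summed signals of the preadipocyte list (9 of 10 genes with a probe set) were 30542, 37818, 25536 and 32343. Markers of macrophages summed to 848, 1062, 816 and 798. Of these, Cd14 (352 to 560), Csf1r (143 to 222) and Cd68 (92.8 to 163) were the brightest, while Ptprc read at most 11.9. Those of endothelial cells summed to 176, 341, 90 and 182. Among them Kdr read 75.1, 162, 7.6 and 61.6, higher in Cre cells within both numbers, and Pecam1 read at most 12.9.

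No member passed a limma adjusted p of 0.05 between Cre and vector cells, in either model. All 59 genes passed the level filter by their brightest probe set. By those probe sets the adjusted p-values were 0.999 or higher without the pairing, and the lowest was 0.0827 (Ccnd1) in the paired model. Dimmer probe sets reached 0.0599 (Cenpa) and 0.066 (Ccnd1) in the paired model. That model has 1 residual degree of freedom, to which limma adds 9.8 drawn from all probe sets. Over all 11079 genes tested, 0% were called without the pairing and 4.23% in the paired model, where 3.25% rose and 0.984% fell. Over probe sets those shares were 0.00888% and 3.14%. At an unadjusted p under 0.05, 1 member passed without the pairing (5.07% of all genes did) and 10 passed with it (18.4% of all genes did). None of the 59 differed by 2-fold or more, where 3.19% of all genes did. The 95% interval of the difference lay within 2-fold in both directions for 47 members, and for 56 in the paired model. The exceptions there were E2f2, Rb1 and Tyms. A p above the threshold does not show that a member did not differ.

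Small differences leaned toward lower signal in Cre cells. Of the 59 members, 46 had a negative difference (78%, against 48.9% of all genes), with a median of -0.16 against 0.01. Within both replicate numbers alike, 32 members were lower in Cre cells (54.2%, against 30.2% of all genes) and 6 were higher (10.2%, against 32.8%), while 21 went opposite ways. After normalization, both Cre arrays lay below both vector arrays for 15 members (25.4%, against 13.6% of all genes) and above them for 0 (17.5% of all genes). The lean was uneven between the numbers, with a median of -0.14 and 46 members lower in number 1, and a median of -0.08 and 39 lower in number 2. Without the array Cre 1, 34 members were lower (57.6%, against 47.8% of all genes) with a median of -0.05. That fit sets Cre 2 against both vector arrays, so the gap between the numbers enters it. Scaling moved the count too: with the log2 values centred on their medians, 54 members (91.5%) and 63.8% of all genes were lower. The members were assembled with earlier results of these arrays known, so the lean is a description of them.

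A marker of mature fat cells moved with the genotype beside this lean. Fabp4, a fatty acid carrier that rises as preadipocytes mature, read 186 and 112 in vector cells and 908 and 1120 in Cre cells, a difference of 2.65 ± 0.27 with adjusted p-values in limma of 0.145 without the pairing and 0.000104 with it. The whole fat cell list (7 of 8 genes with a probe set, 2 of them tested) summed to 326, 1083, 193 and 1226. Adipoq read at most 16.7 and the brown fat gene Ucp1 at most 21.8 on every array, and Retn, the other gene tested, differed by 0.14 ± 0.36. Their part in the lean of the cell cycle genes was not tested. In bulk samples, fewer cells of a type and less RNA per cell cannot be told apart.

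**Figure D2:**
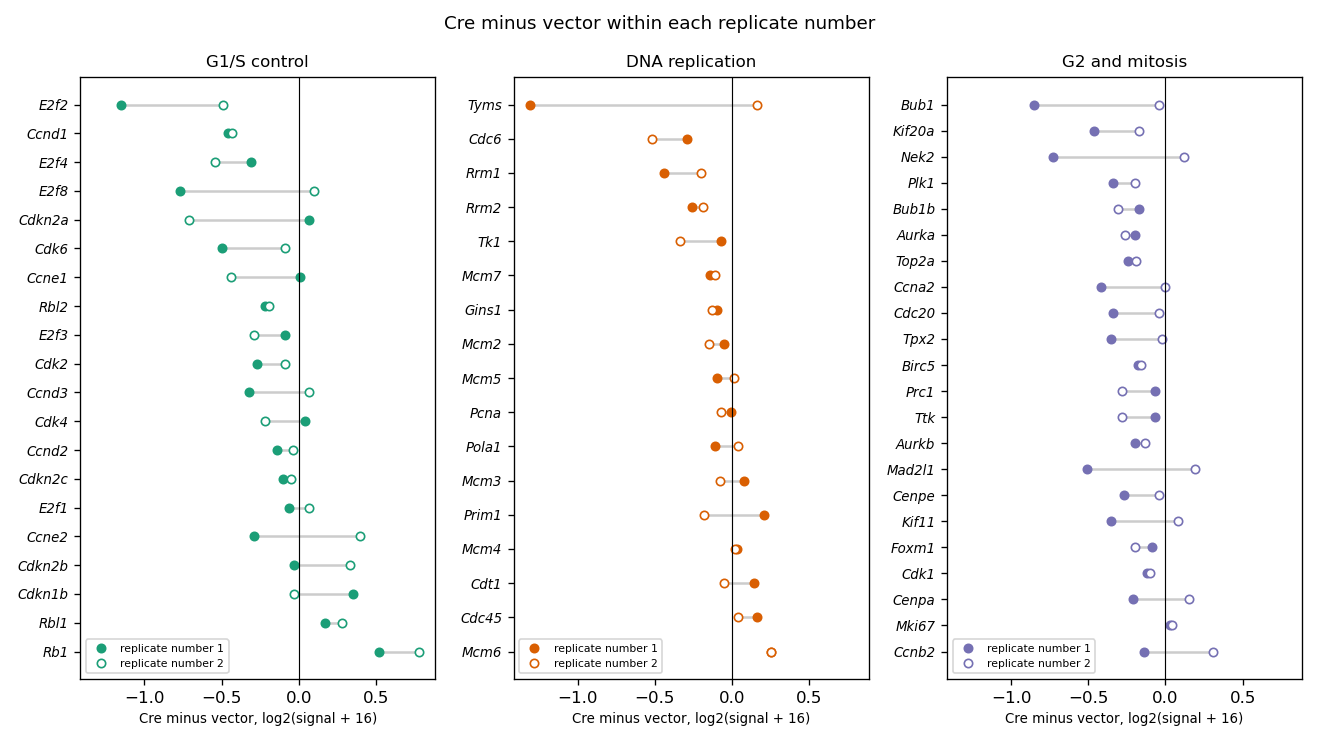
Cre minus vector on the log2(signal + 16) scale (x axis) for each member, by phase. Filled points are replicate number 1, open points are number 2, and a grey line joins them. In the mitotic panel 21 of 22 genes lie left of 0 in number 1 and 15 of 22 in number 2.

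Among the 20 G1/S genes, 14 had a negative difference and the median was -0.15. The 3 D-type cyclins, which start the phosphorylation of pocket proteins, all had negative differences. Ccnd1 (cyclin D1) read 2955, 2133, 4172 and 3033. By this brightest probe set Cre was lower within each number, by nearly the same step (pair values -0.46 and -0.43). Within each genotype, the array of number 2 was higher than that of number 1. Its difference was -0.45 ± 0.24 (95% interval -1.04 to 0.15, paired -0.71 to -0.18). All 3 of its probe sets were lower, by -0.63 to -0.45. In the dimmer ones the step was larger in number 1 (pair values -0.87 and -0.39, and -0.7 and -0.32). The other D-type cyclins differed less, Ccnd2 by -0.09 ± 0.13 with signals of 7123 to 9161 and Ccnd3 by -0.12 ± 0.20 with 2153 to 2697. Of their kinases, Cdk4 differed by -0.09 ± 0.13 (8719 to 11166 signal units) and Cdk6 by -0.29 ± 0.26. Cdk6 read 1815 (vector) and 1268 (Cre) in number 1, but 1275 and 1161 in number 2. A dimmer probe set of Cdk6 differed by -0.50 ± 0.28 (pair values -0.62 and -0.38). The E-type cyclins and Cdk2, which act at the entry into S phase, showed no common direction. Ccne1 read 1652, 1621, 1366 and 968, Ccne2 read 639, 517, 428 and 579, and Cdk2 read 1147, 933, 937 and 857. After normalization Cdk2 was lower in Cre cells in both numbers (-0.27 and -0.09), while the pair values of Ccne1 were 0.01 and -0.44 and those of Ccne2 -0.29 and 0.40.

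The activating factor E2f2 had the most negative difference of the 59 brightest probe sets, -0.82 ± 0.32 (95% interval -1.60 to -0.04, paired -1.43 to -0.21). It was also one of the dimmest, with 147 and 115 in the vector arrays and 66.6 and 78 in the Cre arrays. The groups did not overlap, and the step was larger in number 1 (-1.15) than in number 2 (-0.49). Its adjusted p in the paired limma model was 0.162. Its second probe set lay below the level filter. E2f4, which acts mainly in repressor complexes with pocket proteins, read 892 and 1190.2 in vector cells and 714 and 790.3 in Cre cells, again without overlap (-0.42 ± 0.27). E2f1 and E2f3, both activators, read 1378 to 1692 and 782 to 981, with differences of 0.00 ± 0.22 and -0.19 ± 0.23. E2f8, an atypical repressor, read 808, 481, 618 and 664, so its pair values (-0.77 and 0.10) had opposite signs.

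The 3 pocket proteins and 4 CDK inhibitors, the brakes of this phase, were mixed, with 3 negative and 4 positive differences. Rb1, the retinoblastoma gene, had the most positive difference of the members, 0.65 ± 0.42, with signals of 321 (vector) and 466 (Cre) in number 1, and of 126 and 241 in number 2. Cre was higher within both numbers (0.52 and 0.78), yet the groups overlapped, because vector 1 lay above Cre 2. Its paired adjusted p was 0.128. The related gene Rbl1 was also higher within both numbers (0.17 and 0.28, signals of 834 to 1212), though a second, dimmer probe set differed by -0.27. Rbl2 was lower in both (-0.22 and -0.19, signals of 251 to 341). The inhibitors of Cdk4 and Cdk6 read 3396, 3536, 2829 and 1697 for Cdkn2a, 2623, 2542, 1687 and 2132 for Cdkn2b, and 2232, 2067, 2511 and 2418 for Cdkn2c. Cdkn2a was lower in Cre cells in number 2 alone (pair values 0.07 and -0.71) and Cdkn2b was higher there alone (-0.03 and 0.33). The Cdkn2a locus also encodes ARF, a regulator of p53, from an overlapping transcript, and the files do not say which transcript the probe set reads. Cdkn1b, an inhibitor of Cdk2 complexes, read 1354, 1672, 861 and 827.

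**Figure D3:**
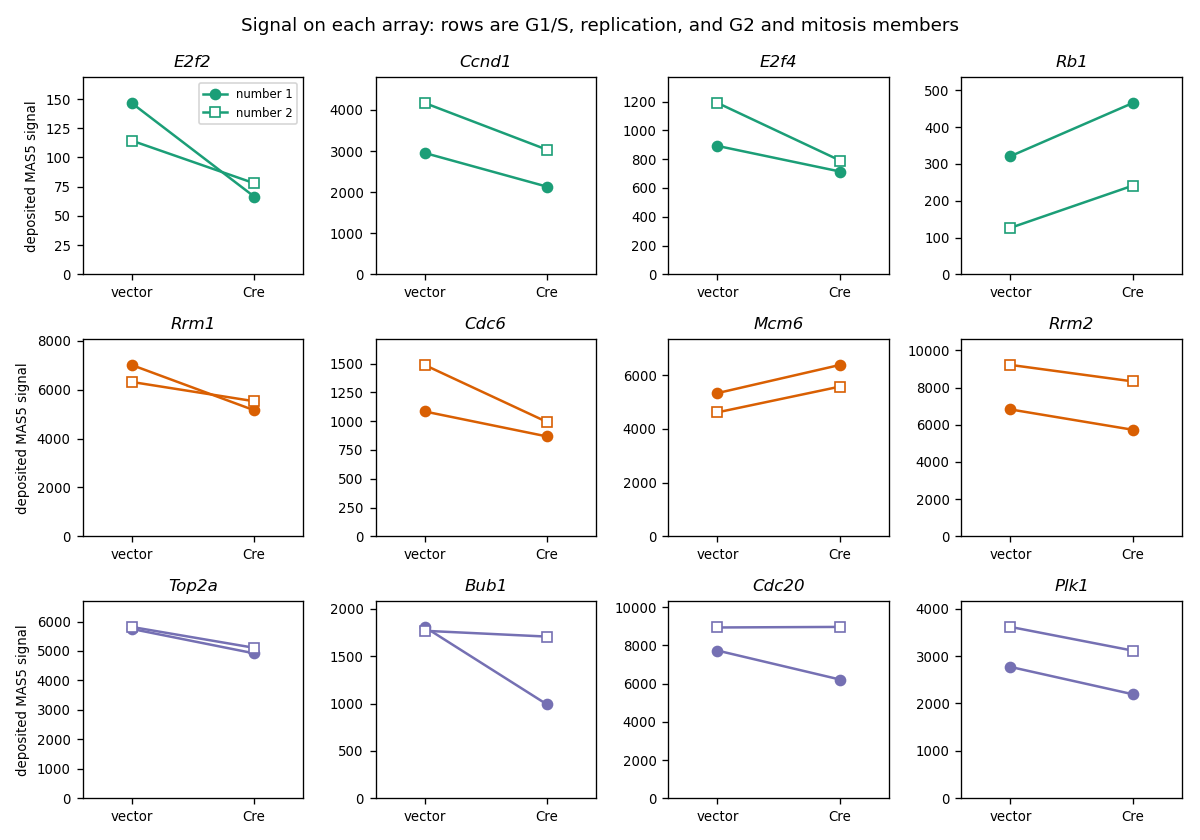
Deposited MAS5 signal (linear axis from 0) in vector and Cre cells for the 4 members of each phase with the smallest p, with filled circles for replicate number 1 and open squares for number 2. Lines join arrays of one number. Rb1 and Mcm6 step up within both numbers, and for Cdc20 and Bub1 the step down is mainly in number 1.

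Of the 17 replication genes, 12 had a negative difference, with a median of -0.05. The 6 Mcm genes encode the ring-shaped helicase that is loaded at origins, and 5 of them lay between -0.12 and 0.02. Mcm6 had the most positive value. It read 5334, 6384, 4618 and 5577, higher in Cre cells by the same step within both numbers (0.25 and 0.25; 0.25 ± 0.19 over the groups), and a second probe set also differed by 0.25. Both Cre arrays read above both vector arrays as deposited, but not after normalization. The brightest probe sets of the remaining subunits read 3795 to 4424 for Mcm2, 4741 to 5525 for Mcm3, 5052 to 5661 for Mcm4, 5230.1 to 5623 for Mcm5 and 11399.6 to 11976 for Mcm7. Cdc6, which helps to load the helicase, read 1084 and 1488 in vector cells and 867 and 993 in Cre cells. The Cre arrays were both below the vector arrays, with a difference of -0.40 ± 0.27 and pair values of -0.29 and -0.52. Its loading partner Cdt1 differed by 0.04 ± 0.17. Cdc45 and Gins1, whose products turn the loaded ring into an active helicase, differed by 0.10 ± 0.23 and -0.11 ± 0.27. Pcna, the sliding clamp, differed by -0.04 ± 0.12 with signals of 12976 to 16033, and the polymerase alpha and primase genes Pola1 and Prim1 differed by -0.03 ± 0.21 and 0.01 ± 0.18.

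All 4 genes of nucleotide supply had negative differences. Rrm1, the large subunit of ribonucleotide reductase, read 7009 and 6314 in vector cells and 5157 and 5525 in Cre cells. The groups did not overlap, and the difference was -0.32 ± 0.15 (95% interval -0.69 to 0.05, paired -0.55 to -0.09). A dimmer probe set of Rrm1 read 3318, 2592, 3624 and 3507, so there the groups overlapped. Its difference was -0.2 ± 0.19, mainly in number 1 (pair values -0.35 and -0.04). The small subunit Rrm2 read 6828, 5732, 9224 and 8334, lower in Cre cells within both numbers (-0.26 and -0.19), with a larger step between the numbers than between the genotypes. Tk1, thymidine kinase, read 4781, 4554, 7796 and 6303 (-0.20 ± 0.24). Tyms, thymidylate synthase, read 712, 298, 151 and 177 by its brightest probe set. That difference of -0.58 ± 0.61 came from number 1 alone (pair values -1.31 and 0.16). A dimmer probe set of Tyms differed by -0.42 ± 0.32 and was lower within both numbers (-0.75 and -0.09). A further probe set, annotated to both Tyms and its pseudogene, was left out by the rule for a single symbol.

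Of the 22 mitotic genes, 20 had a negative difference, with a median of -0.17. By brightest probe set the differences ran from -0.45 (Bub1) to 0.09 (Ccnb2). In number 1 the median was -0.23 and in number 2 it was -0.07. Without the array Cre 1, 9 of the 22 were negative, with a median of 0.02. The counts were then 14 of 20 for G1/S and 11 of 17 for replication genes. That fit sets Cre 2 against both vector arrays, so the gap between the numbers enters it. For the mitotic genes, number 2 minus 1 had a median of 0.23. Within number 2, 15 of the 22 were lower in Cre cells. The cyclins and their kinase read 3812, 2850.3, 5583 and 5614 for Ccna2, 3624, 3277, 3370.3 and 4194 for Ccnb2, and 8182, 7746, 10522 and 10323 for Cdk1. By its brightest probe set Ccna2 was lower in Cre cells in number 1 alone, while its other probe set was lower in both numbers (-0.21 and -0.24). Ccnb2 was lower in number 1 and higher in number 2.

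The 4 mitotic kinases all had negative differences. Plk1, which acts in spindle assembly and mitotic exit, read 2771, 2194, 3615 and 3114 (-0.27 ± 0.23; pair values -0.34 and -0.20). Aurka read 2311, 1988, 3834 and 3168, a difference of -0.23 ± 0.31 in which the SE holds the gap between the numbers. Aurkb differed by -0.17 ± 0.21 and Nek2 by -0.30 ± 0.29, the latter with signals of 1581 (vector) and 946 (Cre) in number 1, but 1384 and 1478 in number 2. Among genes of the spindle checkpoint, Bub1 read 1809, 991, 1768 and 1707. The low value of Cre 1 sets its difference of -0.45 ± 0.30, since the pair values were -0.85 and -0.04, and it was -0.06 without that array. Bub1b, by contrast, was lower in both numbers by similar steps (-0.17 and -0.31, signals of 1412 to 1791). Mad2l1 read 4331, 3035, 4684 and 5456 and Ttk 965, 894, 1155 and 920.

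Cdc20, an activator of the anaphase-promoting complex, read 7728, 6212, 8935 and 8965 by its brightest probe set, a difference of -0.19 ± 0.16, while another of its 3 probe sets differed by 0.03. Top2a, the topoisomerase that untangles sister DNA, read 5750.3 and 5817 in vector cells and 4920.4 and 5109 in Cre cells. It had similar steps in both numbers (-0.24 and -0.19) and no overlap of the groups, with a difference of -0.21 ± 0.14. Mki67, which encodes the proliferation marker Ki-67, read 3982, 4026, 4593 and 4795 and differed by 0.04 ± 0.16, with pair values of 0.03 and 0.04. Foxm1, an activator of mitotic genes, differed by -0.14 ± 0.22, and its 3 tested probe sets by -0.23 to -0.11, with another below the level filter. By brightest probe set, the 7 genes of the spindle, centromere and cytokinesis, among them the motor genes Kif11 and Kif20a, were all negative. They ran from -0.32 (Kif20a) to -0.03 (Cenpa), and 5 of them were lower in both numbers. A dimmer probe set differed by -0.85 ± 0.41 for Cenpa (pair values -0.46 and -1.23), by -0.71 ± 0.27 for Cenpe and by 0.41 ± 0.35 for Tpx2.

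Where a gene had several probe sets above the level filter, they mostly ran the same way. That was so for 28 of 36 such genes, while for Ccnd2, E2f3, Rbl1, Cdt1, Cdc45, Prim1, Cdc20 and Tpx2 the signs were mixed.

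The members differed more between the replicate numbers than between the genotypes. In the median over members, arrays of one genotype differed in absolute log2 terms by 0.25 (vector) and 0.27 (Cre) between numbers, against 0.20 and 0.16 between Cre and vector within numbers 1 and 2. All genes showed the same order (0.27 and 0.30 against 0.22 and 0.21). By phase, the order was clear for replication genes (0.26 and 0.25 against 0.14 and 0.13). G1/S genes were nearly even (0.28 and 0.26 against 0.24 and 0.25). For mitotic genes the values between numbers were 0.15 (vector) and 0.33 (Cre), against 0.23 and 0.16. In the paired model 14 of 59 members were called between the numbers (23.7%, against 16.7% of all genes), 9 of them higher in number 2 (8.46% of all genes) and 5 lower (8.26% of all genes). In a model without the genotype term 0 members were called, as were 0.162% of all genes. The higher ones were 6 mitotic genes (Ccna2, Aurka, Birc5, Kif20a, Cenpe and Cdk1), the nucleotide supply genes Tk1 and Rrm2, and Ccnd1. Ccna2 was 0.66 ± 0.13 higher in number 2 (limma adjusted p = 0.00767) and Aurka 0.63 ± 0.12 (adjusted p = 0.00908), the latter by 0.66 in vector and 0.60 in Cre cells. Birc5, the survivin gene, had signals of 5828 (vector) and 5165 (Cre) in number 1, and of 8382 and 7649 in number 2, without overlap.

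Lower in number 2 were the brakes Rb1, Cdkn1b, Cdkn2a and Cdkn2b, and Tyms. Number 2 minus 1 was -0.79 ± 0.17 for Cdkn1b (limma adjusted p = 0.0112), -0.85 ± 0.20 for Rb1 (adjusted p = 0.0188) and -0.48 ± 0.14 for Cdkn2b (adjusted p = 0.0455). Cdkn2a differed by -0.33 between the vector arrays and by -1.10 between the Cre arrays. Of the 22 mitotic genes, 12 had, after normalization, both arrays of number 2 above both of number 1 and 0 had them below. Together that is 54.5% of them, near the 53.5% of all genes, of which 3159 were above and 2773 below. In contrast, the 6 Mcm genes were all lower in number 2 after quantile normalization, by a median of -0.22, with 0 called. Mcm5 differed by only -0.10 ± 0.10, and its deposited signals were 5623 and 5230 in number 1 and 5556 and 5576 in number 2. Deposited array medians were 67.2 and 78 in number 1 and 50.6 and 52.5 in number 2, so the sign can depend on the scaling. Sex-linked transcripts also parted the numbers, as did the mesenchymal marker Thy1, with signals of 437 (vector) and 526 (Cre) in number 1 and of 2974 and 2500.1 in number 2. Their part in the differences between numbers was not tested.

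**Figure D4:**
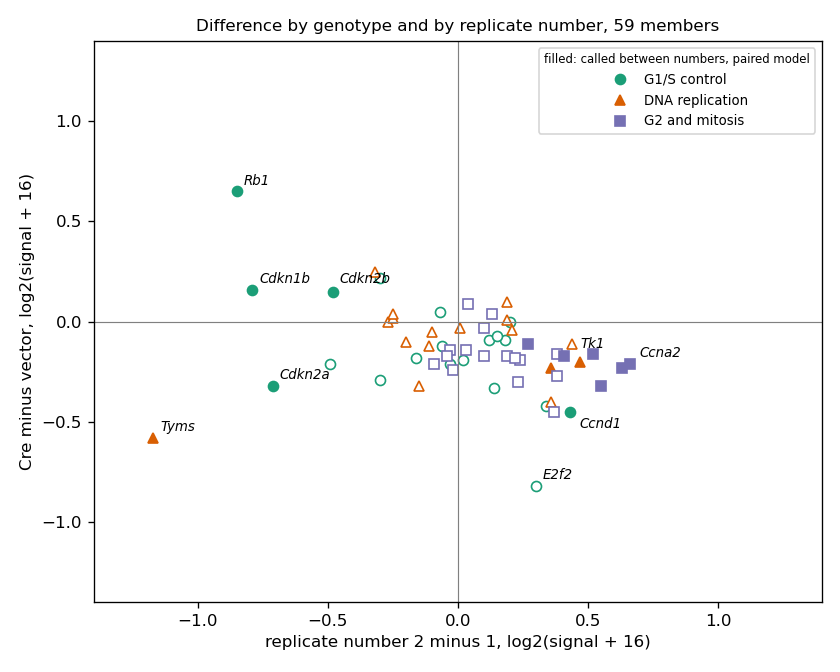
Difference by replicate number (2 minus 1, x axis) against difference by genotype (Cre minus vector, y axis), both on the log2(signal + 16) scale, for 59 members. Filled symbols are the 14 called between numbers in the paired model. Mitotic genes (squares) spread to the right, while Rb1, Cdkn1b, Cdkn2a, Cdkn2b and Tyms lie to the left.

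The rest of the pathway was read from 111 further genes, of which 106 were tested. At a limma adjusted p under 0.05, 0 were called without the pairing, and in the paired model 1 rose and 0 fell. The gene that rose was Cdkn1a, a CDK inhibitor induced by p53, with 2852 and 2456 in vector cells and 3803 and 4121 in Cre cells. It was 1.5-fold higher (0.58 ± 0.18; adjusted p = 0.917 in limma without the pairing and 0.032 with it), with pair values of 0.44 and 0.73 and no overlap of the groups. In the other G1/S genes, 10 of 20 had a negative difference (median -0.04). Negative differences were found for 30 of 40 other replication genes (median -0.09), and those with the smallest p were Uhrf1, which links replication to DNA methylation (-0.26 ± 0.15), and Orc2, of the origin recognition complex (-0.50 ± 0.38). For other mitotic genes the count was 25 of 46 (median -0.03), and those with the smallest p were the condensin subunits Smc4 (-0.25 ± 0.16) and Smc2 (-0.26 ± 0.18). The gap in count between these and the 20 of 22 mitotic members was not tested. Over the 3 further lists, 46 of the 106 genes were lower in both numbers (43.4%, against 30.2% of all genes).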

How the data were processed

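Each of the 4 arrays has 1 value per probe set, a linear signal intensity deposited by the authors. MAS5 made it, per the submitters' processing notes. No version or setting was at hand. With 2% cut from both tails, every array's mean intensity was 500 as deposited, while medians ran from 50.6 to 78. Since medians lay up to 0.50 apart as log2(signal + 16), the intensities were quantile normalized before this log2 was taken, which understates differences of dim genes. Precision is limited by how few arrays there are.

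Of 45101 probe sets, 64 controls were left out. Symbols came from the platform annotation, updated through the gene ID to RefSeq (GRCm38.p6), where 34741 of 34945 probe sets with 1 symbol matched. Those with several symbols (932) or none (9160) name no gene. The 22519 probe sets at or above the 50th percentile of mean level were tested with lmFit and eBayes with an intensity trend (limma 3.58.1, R 4.3.3), with Benjamini-Hochberg adjustment over all of them. A gene is read by its brightest probe set. With 2 arrays a group, exact permutation gives a two-sided p of at least 0.333.

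The replicate numbers were checked for pairing: over probe sets, the deviations of arrays that share a number correlated at 0.603. Xist read 11049 and 9810.0 in vector 1 and Cre 1 but 41.8 and 58 in number 2, and the Y-linked Eif2s3y read 141 and 228 against 1127 and 1265. The numbers were therefore treated as pairs in the paired model and the pair values, inferred from the data and not stated in the labels. Where that model is not named, standard errors and intervals of Cre minus vector leave the pairing out. The paired model has the replicate number as a block.

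Given in full were the 4 members of each phase with the smallest p, Ehmt2, further cell cycle genes called in either model or the 2 of each list with the smallest p, and the marker lists. Values of all other members may be given. Which of them are singled out, and the genes called between the numbers, were chosen after their values were seen. The members and lists were chosen with earlier results of these data known. Alternatives were pseudocounts of 1 and 64, no filter or the 75th percentile, median centring, the scaling as deposited, eBayes robust or with no trend, the block, other choices of probe set, and each array left out.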

Additional observations from a re-analysis of the deposited data

How the results depend on the processing

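No member was called between Cre and vector cells under any of the 15 alternatives. The replicate block brought Ehmt2, Fabp4, Col3a1 and Cdkn1a (1 further cell cycle gene, against 0) past the threshold. It changed no other call between Cre and vector among the genes named. All probe sets called numbered 2, and 708 with the replicate block, 16 with median centring, 1 with a pseudocount of 1 or the 75th percentile filter, 0 without the filter or without the trend, and 7 to 28 with 1 array left out. Members called between replicate numbers numbered 0, and 13 with median centring, all of them higher in number 2, and 14 with the replicate block. With median centring the medians were -0.25 (G1/S), -0.16 (replication) and -0.30 (mitosis), where that of all genes moved from 0.01 to -0.09; relative to all genes they were -0.16, -0.07 and -0.21, against -0.16, -0.05 and -0.18 in the main setting. The G1/S median was -0.07 on probe sets without an s, x or a suffix. The replication median was -0.04 with a pseudocount of 64 or the 75th percentile filter, -0.11 over the mean of probe sets and -0.10 without those suffixes. With 1 array left out the medians ran from -0.19 to -0.11 (G1/S), -0.07 to -0.03 (replication) and -0.31 to 0.02 (mitosis), the last being positive without Cre 1. Cdc20 turned from -0.19 to 0.03 on the probe set without a suffix. Members at an unadjusted p under 0.05 numbered 1, and 10 with the replicate block, a count added after seeing the data. Leaving out an array unbalances the replicate numbers, so the gap between the numbers enters these medians.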
